A study of Homo sapiens with 27 samples.

Results

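The genes described here are 35 genes of glycolysis and of the transcriptional response to low oxygen, in expanding cultures of U2OS, a human osteosarcoma cell line. They were taken as a fixed list of symbols, 22 for glucose uptake, the glycolytic enzymes, lactate formation and their regulators, and 13 for the hypoxia-inducible factors (HIFs), their oxygen sensors and their targets, out of 55882 gene symbols in the count files. The rule uses no measured value, but the list was chosen with earlier results of these data known. All 35 symbols were found. Poly(A) RNA was sequenced from 3 stable lines made with the pLKO.1 shRNA vector. The control line, labelled WT, carried the blank pLKO.1 vector, and the lines sh1 (MMP-2 shRNA 23) and sh2 (MMP-2 shRNA 26) carried shRNAs against MMP2, the gene of the protease MMP-2. All 3 lines were plated at 30% confluence and collected at day −2 (subconfluent), at day 0 (confluent) and at day +2 (overconfluent), in DMEM with 10% fetal bovine serum at 5% CO2 and with no change of oxygen supply given in the labels. Each of the 9 groups had 3 libraries, described by the study as independent biological replicates. Each shRNA is represented by 1 stable line, so an effect of the shRNA and a difference between lines cannot be told apart.

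Glycolysis splits glucose into pyruvate in the cytosol, and in cultured tumor cells much of that pyruvate is reduced to lactate even when oxygen is present. HIF1A and EPAS1 are the oxygen-regulated alpha subunits of HIF. With oxygen they are hydroxylated by the EGLN prolyl hydroxylases and degraded, and without it they accumulate as protein and raise transcription of glucose transporters, most glycolytic enzymes, PDK1, the carbonic anhydrases CA9 and CA12, VEGFA, ADM, BNIP3 and the sensor EGLN3 itself. Control of the alpha subunits is mainly at the protein level, which RNA counts do not report.

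Read counts on genes ran from 33580129 to 59374327 per library, of which the 35 members took 1.32% to 2.10% and mitochondrial genes 4.16% to 7.15%. MMP2 was lower in every sh1 and sh2 library than in every control library of the same day. Its mean was 232, 325 and 489 CPM (read counts scaled to a library of 1e6 reads) at days −2, 0 and +2 in the control line, 40.1, 59.1 and 97.0 in sh1 and 144, 158 and 278 in sh2. Of 8 markers of the osteoblast lineage and mesenchyme, 5 averaged over 1 CPM in every group and summed to 1794 to 2350 CPM per library. The 4 leukocyte markers summed to at most 1.68 CPM and the 2 measured endothelial markers to at most 5.02 CPM, while 3 of 5 epithelial markers were above 1 CPM and summed to 362 to 758 CPM. The mitochondrial share and the share of reads on no gene moved with the day of culture. In the control line the mitochondrial share was 4.16% to 5.30% in the libraries of day −2 and between 5.49% and 6.37% in those of day +2, and the no-feature share 6.56% to 6.60% and 7.53% to 7.93%. The sum over 10 proliferation markers ranged over 3536 to 3709 CPM when subconfluent, 3850 to 3916 when confluent and 3131 to 3184 when overconfluent. Their part in the changes below was not tested.

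HIF dimers bind a short core, and the 250 bases before the RefSeq start of each gene were searched on both strands for its spellings ACGTG and GCGTG. A promoter entry was found for 31 members, and SLC2A3, VEGFA, NDRG1 and BNIP3L had none in the table used. Only 1 entry was used per member, so any other start of the gene was not searched, and the start used may not be the main one. For 27 of the 31, the first 30 bases after the start matched an annotated transcript of the gene. At least 1 of the words stood before 21 of the 31 (67.7%), against 43.2% of all 35116 promoters of the same length. This was 12 of 21 glycolysis members (57.1%) and 9 of 10 HIF members (90.0%). The word ACGTG alone stood before 12 of 31 members (38.7%) and 18.5% of all promoters. By set, ACGTG stood before 8 of 21 glycolysis members (38.1%) and 4 of 10 HIF members (40%), so the sets differed little in this word. A palindrome that reads the same on both strands is counted once on each. The 5 printed here were chosen because they belong to members on which the comparisons below turn, 4 with a word and 1 without. Capitals mark the matched words, and all are RefSeq sequence of build GRCh38.p14, written 5′ to 3′ on the gene's strand and ending at the base before the start.
CA9, chr9:35673678-35673927, plus strand: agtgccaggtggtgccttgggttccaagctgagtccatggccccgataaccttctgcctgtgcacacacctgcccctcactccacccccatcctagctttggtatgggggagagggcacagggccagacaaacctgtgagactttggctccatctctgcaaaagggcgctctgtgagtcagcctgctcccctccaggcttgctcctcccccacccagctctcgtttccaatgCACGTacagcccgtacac
HK2, chr2:74833877-74834126, plus strand: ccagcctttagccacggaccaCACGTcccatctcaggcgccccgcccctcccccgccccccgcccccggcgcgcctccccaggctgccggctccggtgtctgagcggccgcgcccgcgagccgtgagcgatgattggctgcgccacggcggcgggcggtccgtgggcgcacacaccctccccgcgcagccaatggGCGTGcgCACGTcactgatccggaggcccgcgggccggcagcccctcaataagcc
BNIP3, chr10:131981924-131982173, minus strand: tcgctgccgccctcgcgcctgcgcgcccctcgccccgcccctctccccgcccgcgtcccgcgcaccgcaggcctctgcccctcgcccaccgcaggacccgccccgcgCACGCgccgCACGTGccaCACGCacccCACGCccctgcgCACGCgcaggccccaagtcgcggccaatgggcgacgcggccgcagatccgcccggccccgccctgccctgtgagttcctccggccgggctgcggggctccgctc
LDHA, chr11:18394313-18394562, plus strand: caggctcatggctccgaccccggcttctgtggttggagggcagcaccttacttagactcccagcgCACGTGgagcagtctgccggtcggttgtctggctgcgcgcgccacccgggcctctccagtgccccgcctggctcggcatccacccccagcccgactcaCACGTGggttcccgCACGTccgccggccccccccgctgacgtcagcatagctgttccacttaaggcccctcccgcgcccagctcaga
EGLN3, chr14:33951075-33951324, minus strand: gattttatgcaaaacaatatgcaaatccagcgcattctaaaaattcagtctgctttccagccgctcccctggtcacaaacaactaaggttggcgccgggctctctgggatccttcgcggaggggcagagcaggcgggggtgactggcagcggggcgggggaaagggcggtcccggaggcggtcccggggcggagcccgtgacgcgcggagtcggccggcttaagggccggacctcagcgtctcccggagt
Counted on both strands, BNIP3 held 6 words, LDHA 5, HK2 3 and CA9 1, the last of them 18 bases before the start. A match describes these letters and no binding was measured.

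The members spanned a wide range of levels in the control line at day −2. On a scale per kilobase of the Ensembl canonical transcript, the triose phosphate dehydrogenase GAPDH was highest at 3544 CPM per kb, followed by the enolase ENO1 at 2093, the pyruvate kinase PKM at 1496 and the triose phosphate isomerase TPI1 at 908. LDHB (767), the aldolase ALDOA (760) and LDHA (626) came next. HIF1A stood at 77.6 CPM per kb against 9.63 for EPAS1. The lowest were the hydroxylase EGLN3 at 1.29, the pyruvate dehydrogenase kinase PDK1 at 0.630 and CA9 at 0.10 CPM per kb. CA9 was at the limit of detection, with 5 to 9 reads per library at that day.

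During expansion of the control line the abundant glycolytic enzymes fell and many HIF targets rose. By day +2, 18 of the 35 members were lower and 13 higher than at day −2 in edgeR's quasi-likelihood test at an adjusted p under 0.05, against 28.6% and 28.1% of all tested genes. In lower glycolysis 5 of 6 members fell and ENO2 did not pass, and in upper glycolysis 5 of 9 fell, namely HK1, GPI, PFKP, ALDOA and TPI1. Of the 9 targets outside glycolysis 7 rose, CA9, VEGFA, ADM, NDRG1, BNIP3L, ANKRD37 and KDM3A, and 2 fell, CA12 and BNIP3. The median log2 fold change was −0.39 in lower glycolysis and 0.92 in these 9 targets, beside 0.03 over all tested genes. CA9 passed the filter on low counts only through the libraries of day +2, where it is high. Its place in these counts is thus no separate support for a rise. PFKL, PFKM, ENO2 and HIF1A did not pass the test. Scaled to library totals alone, without TMM factors, the median of all genes shifted by 0.10 on the log2 scale, 59.9% of all calls were rises in place of 49.6%, and 15 members rose and 17 fell.

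**Figure D1:**
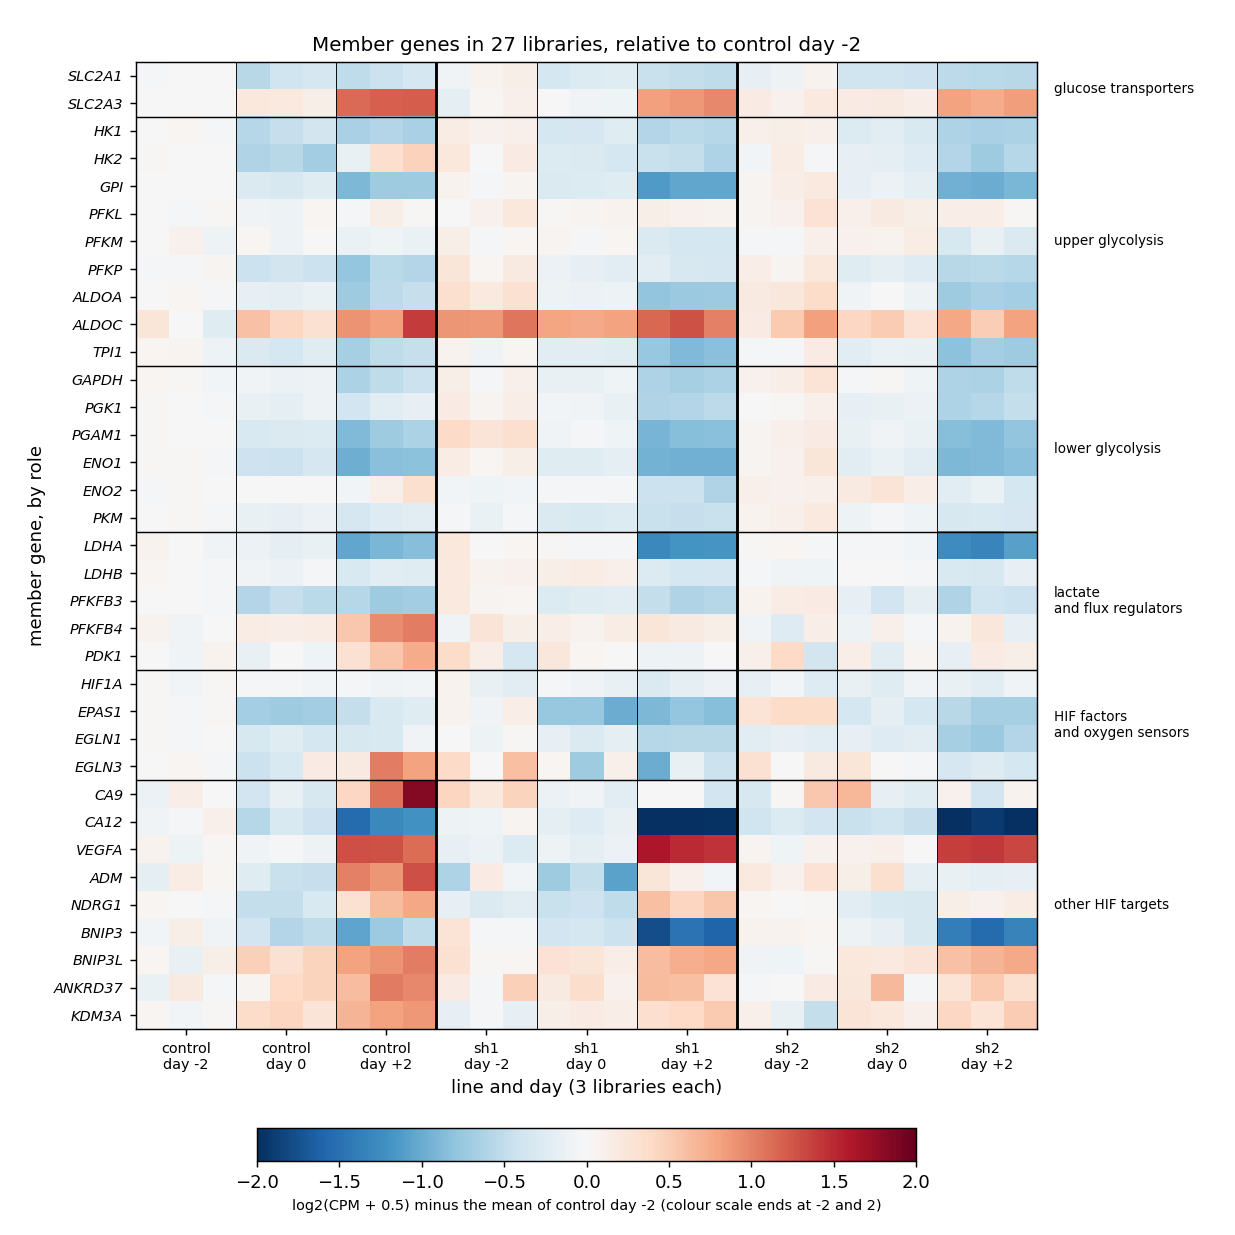
Each row is 1 of the 35 members, grouped by role, and each column 1 of 27 libraries. Color gives log2(CPM + 0.5) minus the mean of the control line at day −2, and the scale ends at −2 and 2. Most glycolysis rows turn blue at day +2 in each line, while the red of HK2, PFKFB4, PDK1, EGLN3, CA9 and ADM at day +2 is strongest in the control line.

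Within glycolysis the largest falls were in LDHA, ENO1, GPI and PGAM1. LDHA (chr11:18416110-18429972 on GRCh37, 8 exons), the lactate dehydrogenase subunit that favors lactate, was at 1470, 1405 and 1333 CPM at day −2 and at 680, 740 and 777 CPM at day +2. The groups were far apart and LDHA was 1.91-fold lower (log2 fold change −0.93 ± 0.05 SE, adjusted p = 1.07e-14). ENO1 (chr1:8921059-8938745) went from 3775, 3780 and 3630 CPM to 1894, 2089 and 2119 CPM, a log2 fold change of −0.87 ± 0.05. GPI, the phosphoglucose isomerase, was at 356 CPM in all 3 libraries of day −2 and at 190, 217 and 217 CPM at day +2 (−0.77 ± 0.05). The phosphoglycerate mutase PGAM1 was at 528, 519 and 516 CPM and then at 282, 317 and 335 CPM (−0.74 ± 0.05). In each of these 4 genes every library of day +2 was below every library of day −2. GAPDH, often used as a reference for constant expression, was at 4680, 4623 and 4360 CPM and then at 2934, 3196 and 3381 CPM, with no overlap (−0.52 ± 0.05). PGK1, PKM and LDHB fell less, by 0.25, 0.26 and 0.24 on the log2 scale. Reads of GAPDH, PGAM1 and BNIP3 may be split with pseudogenes, of which the annotation names 65, 13 and 44. Their levels are thus less certain than those of the others, for which it names at most 6 (LDHA).

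A pair of HIF targets fell as strongly. CA12 (chr15:63613577-63674045), a carbonic anhydrase of the cell surface, was at 47.7, 49.3 and 53.5 CPM at day −2 and at 16.9, 20.2 and 21.3 CPM at day +2, the largest fall among the members at −1.36 ± 0.08 on the log2 scale. BNIP3 (chr10:133781188-133795427), a mitochondrial receptor for mitophagy, was at 42.2, 47.5 and 41.8 CPM and then at 20.8, 26.3 and 30.6 CPM (−0.75 ± 0.09). BNIP3L, its close relative with the same role, moved the other way, from 85.0, 74.7 and 90.2 CPM to 146, 156 and 169 CPM (0.92 ± 0.06, adjusted p = 1.20e-12). The libraries of both days did not overlap in any of these 3 genes.

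Among the rises, VEGFA (chr6:43737948-43754224), the main angiogenic growth factor, was at 49.4, 43.6 and 47.7 CPM at day −2 and at 115, 114 and 103 CPM at day +2. It was 2.36-fold higher (log2 fold change 1.24 ± 0.06, adjusted p = 9.67e-16). SLC2A3, the high-affinity glucose transporter GLUT3, went from 80.8, 80.0 and 79.8 CPM to 176, 185 and 187 CPM (1.19 ± 0.05). Its ubiquitous relative SLC2A1 (GLUT1) fell instead, by 0.42 ± 0.05 on the log2 scale. ADM, a vasodilator peptide, was at 3.06, 3.98 and 3.68 CPM and then at 7.63, 6.97 and 9.46 CPM (1.18 ± 0.16). The aldolase ALDOC was at 8.37, 7.01 and 5.88 CPM and then at 13.5, 12.7 and 19.3 CPM (1.09 ± 0.14). ANKRD37, an ankyrin repeat protein, was at 1.52, 2.01 and 1.67 CPM and then at 2.92, 4.10 and 3.82 CPM (1.07 ± 0.23). The day +2 libraries of these 5 rising genes were all above those of day −2. The other members that rose were PFKFB4 (0.87), which tunes phosphofructokinase activity, EGLN3 (0.80), the histone demethylase KDM3A (0.80), NDRG1 (0.60), PDK1 (0.58) and the hexokinase HK2 (0.25). The rise of HK2 rests on few libraries, since its adjusted p of 0.028 became 0.0504 to 0.305 without any 1 of 5 libraries, and was lost with DESeq2.

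CA9 (chr9:35673925-35681156), a carbonic anhydrase that is among the most oxygen-dependent HIF targets, had 6, 9 and 5 reads at day −2, 0, 4 and 1 at day 0 and 13, 36 and 76 at day +2 in the control line. In the 18 libraries of sh1 and sh2 it had 0 to 19 reads. It passed the filter on low counts in a comparison of days only through the control libraries of day +2, and its log2 fold change of 2.75 ± 0.61 (adjusted p = 0.000384) between days −2 and +2 is a fitted value on these few reads. Without the third control library of day +2 it was 2.03 (adjusted p = 0.0223). Exons of CA9 overlap those of ARHGEF39 on the opposite strand, and the counting used no strand.

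The 2 steps of expansion differed. From day −2 to day 0, 19 of 34 tested members fell and 4 rose (19.1% and 16.4% of all tested genes), and the risers were SLC2A3, ALDOC, BNIP3L and KDM3A. The rise of ALDOC (0.45) was lost without the first library of day 0 (adjusted p = 0.0814) or the third of day −2 (adjusted p = 0.0639). From day 0 to day +2, 13 of 35 fell and 15 rose (20.1% and 21.3% of all). HK2 fell and then rose, at 34.1, 33.7 and 33.4 CPM at day −2, 22.1, 22.9 and 20.6 CPM at day 0 and 30.5, 42.7 and 46.8 CPM at day +2. It fell by 0.62 ± 0.07 over the first step and rose by 0.89 ± 0.10 over the second (adjusted p = 1.32e-07 and 1.21e-08). NDRG1, a stress-induced gene, fell by 0.41 and then rose by 1.03, and EPAS1 fell by 0.70 and then rose by 0.38. VEGFA had a log2 fold change of −0.07 ± 0.06 over the first step (adjusted p = 0.439) and rose by 1.33 ± 0.06 over the second, ADM had −0.44 ± 0.21 and then 1.64 ± 0.17, and EGLN3 −0.19 ± 0.21 and then 1.01 ± 0.21. LDHA lost 0.15 in the first step and 0.76 in the second, CA12 0.43 and 0.91. HK1, SLC2A1 and PFKFB3 fell in the first by 0.46, 0.43 and 0.53, and had −0.14, 0.03 and −0.11 in the second. Without TMM factors 62.8% of all calls in the first step were rises in place of 46.2%, and 5 members rose and 14 fell. The steps share the day 0 libraries. GAPDH fell by 0.09 over the first step (adjusted p = 0.048), a call that was lost without any 1 of 5 libraries (adjusted p = 0.0637 to 0.171) and under 5 other settings. In the second step, the calls of BNIP3, ENO2, PKM, HK1, ANKRD37 and PFKP were each lost without at least 1 library, with an adjusted p of up to 0.388 for BNIP3 and 0.539 for ENO2.

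**Figure D2:**
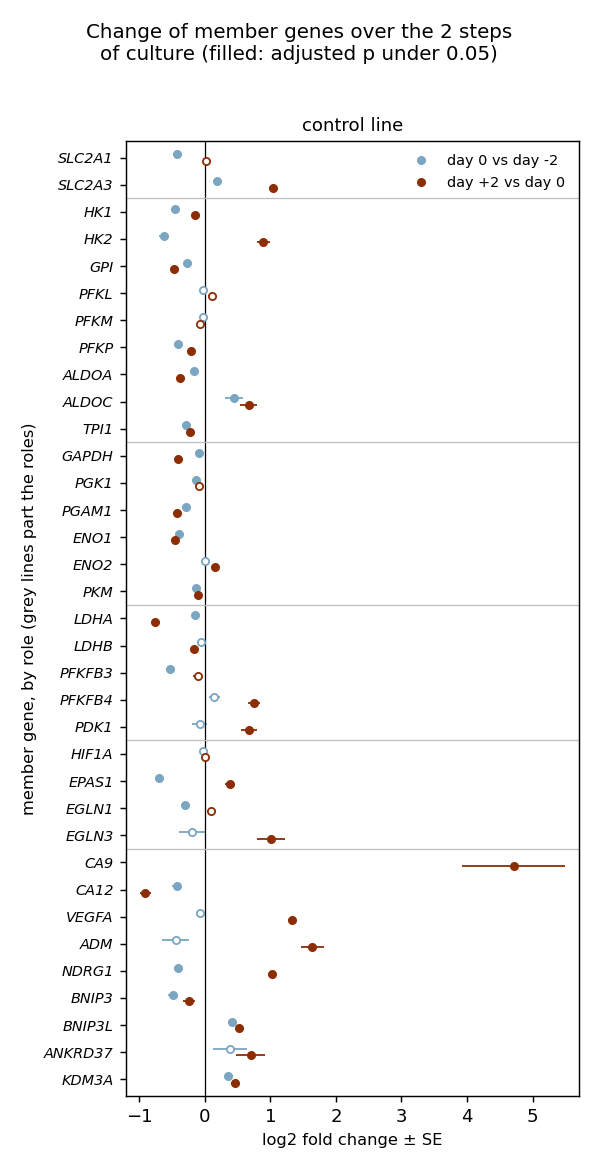
The horizontal axis is the log2 fold change with its SE in the control line, from day −2 to day 0 (light points) and from day 0 to day +2 (dark points), for each member. Filled points passed an adjusted p of 0.05. Enzymes such as ENO1, GPI and PGAM1 lie left of 0 in both steps, while HK2, NDRG1 and EPAS1 lie left in the first and right in the second. CA9 was tested in the second step only.

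The isozymes within a step of the pathway shifted in proportion. Per kilobase of transcript, SLC2A3 made up 28.2% ± 0.336 (SD, n = 3) of SLC2A1 plus SLC2A3 in the control line at day −2, 37.5% ± 2.58 at day 0 and 54.7% ± 0.697 at day +2. LDHB made up 55.1% ± 0.556, 56.6% ± 0.665 and 66.4% ± 1.01 of LDHA plus LDHB. The share of ENO2 in both enolases was 3.09% ± 0.0990, 4.04% ± 0.155 and 6.0% ± 0.458, and that of ALDOC in both aldolases 0.576% ± 0.0987, 0.883% ± 0.0990 and 1.80% ± 0.323. HK2 was 7.46% ± 0.155 of HK1 plus HK2 at day −2, 6.74% ± 0.704 at day 0 and 12.8% ± 2.36 at day +2. For SLC2A3, LDHB, ENO2 and ALDOC the 3 days did not overlap. At day +2 the share of HK2 was 7.69% ± 0.487 in sh1 and 7.48% ± 0.339 in sh2, and every library of both lines was below the lowest control library (10.2%). LDHB was 69.6% ± 1.38 in sh1 and 70.5% ± 0.571 in sh2 at that day. These shares are descriptions and were not tested.

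The same expansion was compared within each shRNA line. In sh1, 22 of 34 tested members fell and 5 rose between days −2 and +2, against 27.7% and 27.3% of all genes. In sh2, 22 of 34 were lower and 4 higher, against 27.1% and 27.7%. Without TMM factors the median of all genes shifted by 0.10 in sh1 and 0.14 in sh2, where 64.5% of all calls were rises in place of 50.5% and 8 members rose and 19 fell. The medians over the members were −0.49 and −0.47, beside 0.04 and 0.05 over all tested genes. VEGFA, SLC2A3, BNIP3L and KDM3A rose in sh1 (1.71, 0.89, 0.58 and 0.54) and in sh2 (1.38, 0.66, 0.73 and 0.57), and NDRG1 rose in sh1 (0.75). All 6 members of lower glycolysis fell in each shRNA line. HK2 fell by 0.65 in sh1 and by 0.65 in sh2. EGLN3 fell by 0.96 ± 0.25 in sh1 and by 0.54 ± 0.21 in sh2, the latter call being lost without any 1 of 3 libraries (adjusted p = 0.0638 to 0.0822). ADM, PFKFB4, PDK1, ALDOC and ANKRD37 passed the test in neither line, with log2 fold changes between −0.16 and 0.36 in sh1 and between −0.39 and 0.42 in sh2. CA9 had too few reads to be tested in either.

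At day +2 most of the members that differed were lower in both shRNA lines than in the control line. In sh1, 21 of 35 members were lower and 2 higher, against 7.11% and 7.68% of all tested genes, and the median over the members was −0.28 beside −0.002 over all genes. In sh2, 19 of 35 were lower and none higher, against 3.43% and 2.89%, with a median of −0.29 beside −0.001. At an unadjusted p under 0.05, 2 members were higher in sh2 (PFKFB3 and VEGFA), and DESeq2 also called 0. Both comparisons use the same 3 control libraries, so they are not independent of each other. Library measures also differed between the lines at that day. The mitochondrial share was 6.53% to 7.15% in sh1 and 6.10% to 6.41% in sh2 against 5.49% to 6.37% in the control, without overlap in sh1. The no-feature share was 8.06% to 8.52% in sh1 and 8.15% to 8.79% in sh2 against 7.53% to 7.93%, and the epithelial markers summed to 397 to 410 CPM and 397 to 399 CPM against 362 to 388 CPM, without overlap in either line. The markers of the osteoblast lineage and mesenchyme summed to 2126 to 2230 CPM in sh1 and 1859 to 1949 CPM in sh2 against 1794 to 1931 CPM. The part of these measures in the differences was not tested. All 3 libraries of sh1 were below all 3 of the control in 22 members, against 14.3% of all tested genes, and all 3 of sh2 in 24 members, against 11.1%.

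Several oxygen sensors and HIF targets were lower in both lines. EGLN3 (chr14:34393433-34420280), the inducible prolyl hydroxylase, was at 4.03, 7.60 and 6.48 CPM in the control line at day +2, at 1.5, 3.12 and 2.47 CPM in sh1 and at 2.66, 2.85 and 2.62 CPM in sh2. Neither shRNA line overlapped with the control, and the log2 fold change was −1.36 ± 0.23 in sh1 (adjusted p = 8.24e-05) and −1.16 ± 0.19 in sh2 (adjusted p = 3.96e-05). ADM (chr11:10326620-10328944) was at 7.63, 6.97 and 9.46 CPM in the control, at 4.27, 3.86 and 3.42 CPM in sh1 and at 3.17, 3.08 and 3.14 CPM in sh2. It was 2.09-fold lower in sh1 (−1.06 ± 0.16, adjusted p = 1.48e-05) and 2.56-fold lower in sh2 (−1.36 ± 0.16, adjusted p = 5.67e-08). BNIP3 was at 20.8, 26.3 and 30.6 CPM against 12.4, 15.3 and 14 CPM in sh1 and 16.5, 14.8 and 17.1 CPM in sh2 (−0.90 ± 0.11 and −0.69 ± 0.10). CA12 was lower by 0.69 ± 0.10 in each line and KDM3A by 0.37 ± 0.07 and 0.39 ± 0.07. The constitutive sensor EGLN1 was lower by 0.35 ± 0.07 in sh1 and 0.44 ± 0.07 in sh2. BNIP3L was lower by 0.20 in sh1 and 0.24 in sh2, calls that were lost without any 1 of 3 and any 1 of 2 libraries (adjusted p up to 0.189 and 0.151).

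CA9 had 6, 6 and 0 reads in sh1 and 8, 0 and 8 in sh2 at day +2, beside the 13, 36 and 76 of the control. CA9 passed the filter on low counts in both comparisons only through the control libraries, where it is high, so its place among the 21 and 19 lower members is no separate support for a difference. The fitted log2 fold changes on these few reads were −3.32 ± 0.70 and −3.00 ± 0.66, and without the third control library they were −2.60 (adjusted p = 0.0501) in sh1 and −2.28 (adjusted p = 0.146) in sh2.

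Within glycolysis, HK2, PFKFB4, PDK1 and ENO2 had the largest called differences at day +2 in sh1. HK2 (chr2:75061254-75120486), the inducible hexokinase, was at 30.5, 42.7 and 46.8 CPM in the control, at 24.7, 24.2 and 21.8 CPM in sh1 and at 22.4, 20.3 and 22.6 CPM in sh2. The groups did not overlap, and HK2 was 1.71-fold lower in sh1 (−0.77 ± 0.10, adjusted p = 2.13e-06) and 1.84-fold lower in sh2 (−0.88 ± 0.10, adjusted p = 9.23e-09), while its constitutive relative HK1 had 0.06 ± 0.05 and −0.01 ± 0.05. PFKFB4 was at 29.1, 39.0 and 41.1 CPM against 23.8, 22.7 and 21.7 CPM in sh1 and 20.9, 23.5 and 17.8 CPM in sh2 (−0.68 ± 0.10 and −0.82 ± 0.10), and its relative PFKFB3 had 0.11 ± 0.07 and 0.19 ± 0.07, neither past the test. ENO2, the neuronal enolase, was at 147, 165 and 191 CPM against 113, 113 and 101 CPM in sh1 and 131, 139 and 120 CPM in sh2 (−0.63 ± 0.07 and −0.37 ± 0.07), and ENO1 had −0.08 ± 0.05 and −0.00 ± 0.04. PDK1, the pyruvate dehydrogenase kinase, was lower by 0.65 ± 0.12 in sh1 and 0.52 ± 0.12 in sh2. Its call in sh2 was lost without the third control library (adjusted p = 0.0888) or the first of sh2 (adjusted p = 0.0640). SLC2A3 was lower by 0.30 ± 0.06 and 0.39 ± 0.05, PGK1 by 0.32 ± 0.05 and 0.30 ± 0.05. ALDOC had 0.08 ± 0.12 in sh1 and −0.38 ± 0.12 in sh2 (adjusted p = 0.734 and 0.0512).

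The abundant enzymes differed less. LDHA was at 680, 740 and 777 CPM in the control at day +2, at 576, 609 and 618 CPM in sh1 and at 583, 562 and 657 CPM in sh2, lower without overlap by 0.29 ± 0.05 in each line (adjusted p = 0.000182 and 0.000197). GAPDH was at 2934, 3196 and 3381 CPM, at 2959, 2859 and 2928 CPM and at 2975, 2923 and 3209 CPM, with overlap and no call (adjusted p = 0.0740 and 0.509). TPI1 was lower by 0.28 in sh1 and 0.19 in sh2, and GPI by 0.30 and 0.19. The calls of TPI1 and GPI in sh2 were lost without any 1 of 3 and any 1 of 4 libraries (adjusted p up to 0.171 and 0.244). PFKM, ALDOA and PKM were lower in sh1 by 0.22, 0.19 and 0.19. Of these, PFKM was lost without either of 2 libraries (adjusted p up to 0.0765) and ALDOA without the second or the third control library (adjusted p up to 0.175), and none of the 3 was called in sh2. PGAM1, LDHB, SLC2A1, PFKL and ANKRD37 were called in neither line.

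A few members did not follow this direction. VEGFA was higher in sh1, at 145, 132 and 129 CPM against 115, 114 and 103 CPM (0.29 ± 0.06, adjusted p = 0.000985), and had 0.15 ± 0.06 in sh2 with 123, 126 and 119 CPM (adjusted p = 0.119). PFKP, the platelet-type phosphofructokinase, was higher in sh1 by 0.34 ± 0.07 and had 0.08 ± 0.06 in sh2. NDRG1 was lower in sh2 by 0.48 ± 0.07, at 112, 110 and 114 CPM against 128, 161 and 177 CPM, and had −0.06 ± 0.08 in sh1. Whether sh1 and sh2 differed from each other was not tested.

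Of the alpha subunits of HIF, HIF1A kept a narrow range of levels and EPAS1 fell from day −2 to day +2 in each line, by 0.34, 0.91 and 0.97 in control, sh1 and sh2. HIF1A (chr14:62162231-62214976) was at 310, 296 and 313 CPM, 298, 301 and 295 CPM and 301, 291 and 294 CPM in the control line at days −2, 0 and +2. In sh1 it was at 322, 277 and 263 CPM, 302, 291 and 276 CPM and 251, 268 and 283 CPM, and in sh2 at 275, 296 and 256 CPM, 277, 260 and 291 CPM and 276, 265 and 291 CPM. HIF1A passed the threshold in 0 of the 13 comparisons in edgeR, with 3 at an unadjusted p under 0.05. DESeq2 called it lower in those 3, in sh1 at day +2 (−0.15, adjusted p = 0.0270) and in sh2 at day −2 (−0.15, adjusted p = 0.0406) and day 0 (−0.12, adjusted p = 0.0380). At day +2 its values in each shRNA line lay below the lowest control value, in sh2 only just (−0.15 ± 0.05 in sh1 and −0.09 ± 0.05 in sh2 in edgeR, adjusted p = 0.0636 and 0.364). EPAS1 (chr2:46524546-46613836), the gene of the other alpha subunit, was at 50.2, 48.3 and 50.3 CPM, 31.0, 30.2 and 30.4 CPM and 35.4, 40.0 and 41.9 CPM in the control line. The sh1 line had 52.2, 47.4 and 54.6 CPM, then 29.1, 29.3 and 24.8 CPM and then 26.3, 28.8 and 27.4 CPM. In sh2 the values were 60.1, 63.8 and 64.4 CPM, 38.7, 43.2 and 38.9 CPM and 33.7, 31.2 and 31.1 CPM. EPAS1 was thus higher in sh2 than in the control at day −2 (0.34 ± 0.06) and day 0 (0.38 ± 0.07) and lower at day +2 (−0.29 ± 0.08, adjusted p = 0.0114), the last call being lost without any 1 of 3 libraries (adjusted p = 0.0643 to 0.139). In sh1 it was lower at day +2 by 0.51 ± 0.08.

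**Figure D3:**
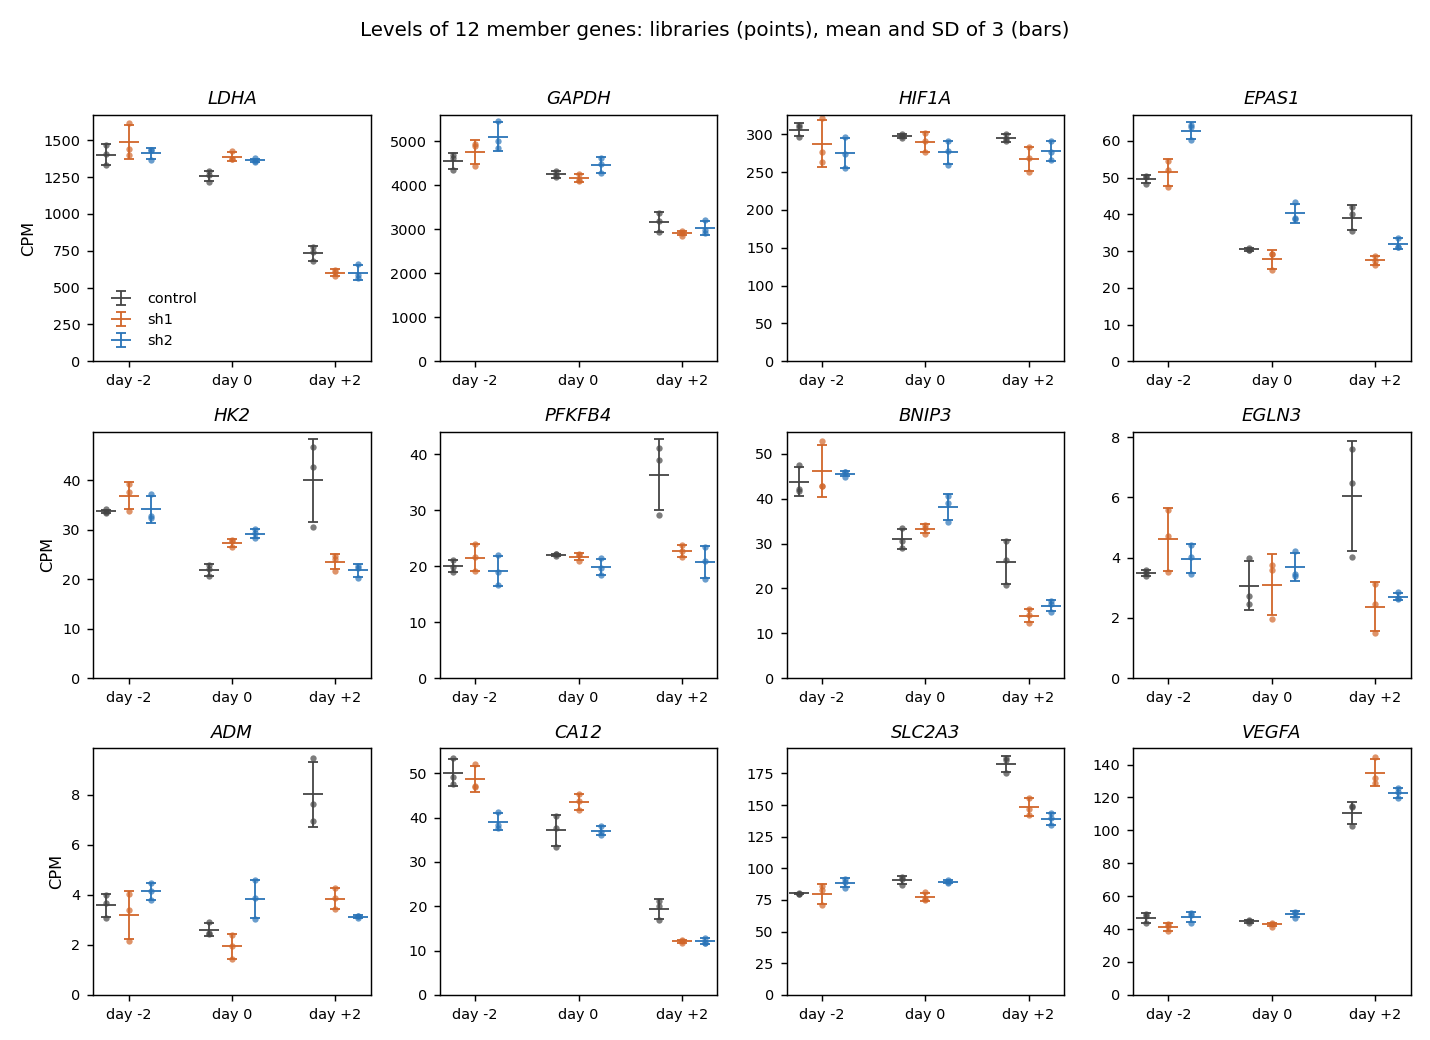
CPM of 12 members by day and line, with a point for each library and bars for the mean and SD of 3. HK2, PFKFB4, BNIP3, EGLN3, ADM, CA12 and SLC2A3 stand apart by line at day +2 only or mainly, VEGFA at day +2 is lowest in the control line, and the vertical axes start at 0.

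The control libraries of day +2 differed from each other in the level of the members. The first was the lowest of the 3 in 29 of the 35 members and the third the highest in 24, against 36.0% and 33.2% of 22107 genes. The members in the first library took 1.40% of all counts, in the second 1.52% and in the third 1.57%. HK2, BNIP3, PFKFB4, PDK1, ENO2 and CA9 were each lowest in the first and highest in the third. MMP2 in the same libraries was 496, 480 and 492 CPM, and their mitochondrial shares were 6.37%, 5.49% and 5.99%. Without the first library the count of lower members was 24 in sh1 and 20 in sh2, and without the third it was 18 in sh1 and 13 in sh2. Calls over all tested genes, in either direction, also varied. They were 13.1% in sh1 and 5.51% in sh2 without the first library and 9.65% and 3.37% without the third. With all libraries they were 14.8% and 6.32%. The number of members called at day +2 over all such omissions ran from 20 to 26 in sh1 and from 13 to 20 in sh2. Of all tested genes 9.65% to 15.9% were called in sh1 and 3.37% to 7.16% in sh2. An uneven order of libraries was not limited to the control line at day +2. At day −2 the second sh1 library was the lowest of its group in 24 members, against 31.3% of all genes. The third sh2 library of that day was the highest in 23, against 37.2%. At day 0 the third sh2 library was the lowest in 21, against 34.3%.

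**Figure D4:**
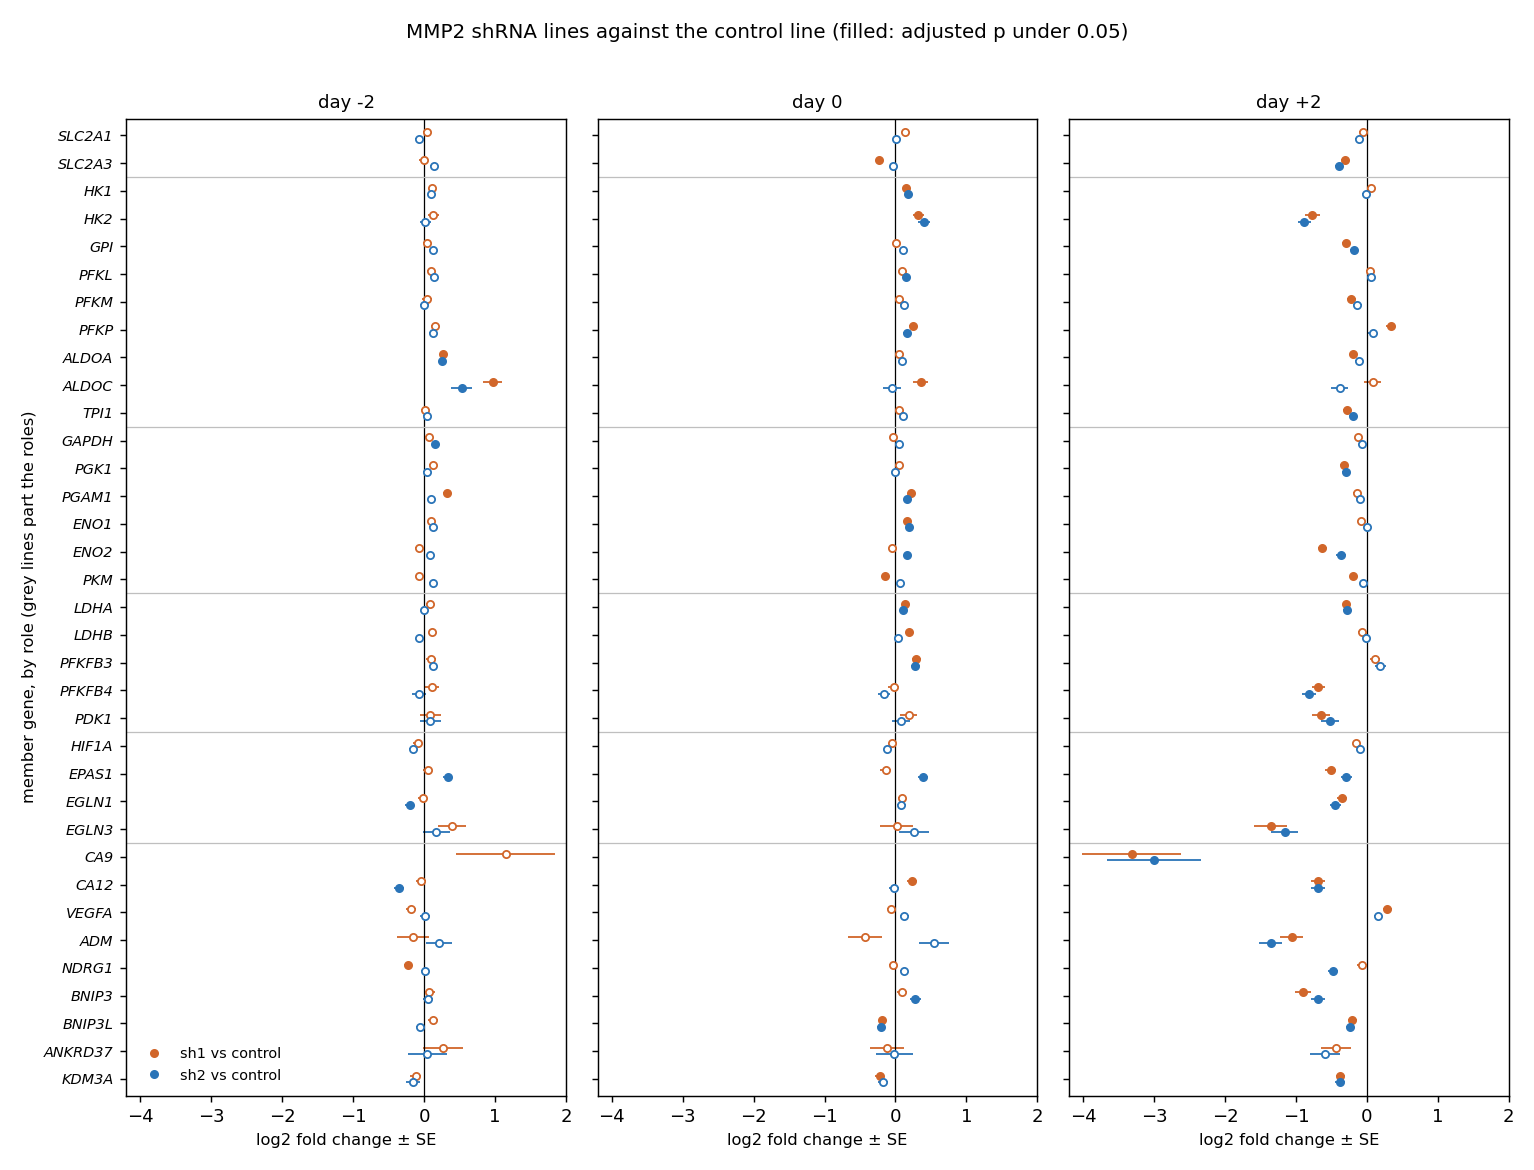
The horizontal axes are log2 fold changes with SE of sh1 (orange) and sh2 (blue) against the control line at days −2, 0 and +2, and rows are the members by role. Filled points passed an adjusted p of 0.05. At days −2 and 0 most points lie close to 0, and at day +2 most filled points lie left of 0. CA9 was tested at day +2 in both lines and at day −2 in sh1.

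Fewer members were called before overconfluence. At day −2, 3 of 35 members were higher and 1 lower in sh1 (5.42% and 6.14% of all genes), and 4 of 34 higher and 2 lower in sh2 (4.71% and 6.33%), counts of few genes, and in sh1 close to the share of all genes. In sh2 without TMM factors 26.7% of all calls were upward in place of 42.6%, and 3 members were higher and 3 lower. ALDOC was at 13.3, 13.3 and 15.2 CPM in sh1 against 8.37, 7.01 and 5.88 CPM in the control, higher by 0.97 ± 0.13 (adjusted p = 1.20e-05). In sh2 it was at 7.95, 10.3 and 12.8 CPM, overlapping with the control, and its rise of 0.53 ± 0.15 was lost without any 1 of 4 libraries (adjusted p = 0.0643 to 0.193). ALDOA was at 1549, 1423 and 1532 CPM in sh1 and 1410, 1454 and 1610 CPM in sh2 against 1240, 1281 and 1216 CPM (0.27 ± 0.05 and 0.26 ± 0.05). PGAM1 was at 679, 624 and 653 CPM in sh1 against 528, 519 and 516 CPM (0.32 ± 0.05, adjusted p = 8.91e-05). CA12 was lower in sh2, at 37.7, 41.3 and 38.3 CPM against 47.7, 49.3 and 53.5 CPM (−0.36 ± 0.07, adjusted p = 0.00179). GAPDH was at 4947, 4442 and 4890 CPM in sh1 and at 4842, 5003 and 5473 CPM in sh2, where its call of 0.16 ± 0.05 was lost without any 1 of 5 libraries (adjusted p = 0.0661 to 0.144). The call of EGLN1 in sh2 (−0.20) was lost without any 1 of the 6 libraries (adjusted p up to 0.174), and that of NDRG1 in sh1 (−0.22) without any 1 of 3 (adjusted p up to 0.0822). LDHA was at 1619, 1399 and 1443 CPM in sh1 and 1432, 1436 and 1368 CPM in sh2, with no call. The epithelial markers at day −2 summed to 489 to 529 CPM in the control line. Their sums were 693 to 758 CPM in sh1 and 604 to 689 CPM in sh2, without overlap with the control. The part of these markers in the differences of day −2, and in the interaction below, was not tested.

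At day 0, 10 of 34 tested members were higher and 4 lower in sh1 (8.26% and 8.58% of all genes), and 11 of 34 higher and 1 lower in sh2 (7.07% and 5.81%). Without TMM factors 34.6% of all calls in sh2 were upward in place of 54.9%, and 7 members were higher and 3 lower. HK2 was at 27.9, 27.7 and 26.5 CPM in sh1 and at 30.1, 29.3 and 28.3 CPM in sh2 against 22.1, 22.9 and 20.6 CPM in the control, without overlap (0.32 ± 0.08, adjusted p = 0.00311, and 0.40 ± 0.08, adjusted p = 0.000418). Its direction was thus opposite to that of day +2 in both lines. PFKFB3 was at 46.0, 46.8 and 48.1 CPM and at 49.3, 42.6 and 48.6 CPM against 36.6, 40.0 and 37.9 CPM (0.30 ± 0.06 and 0.28 ± 0.07), the call in sh2 being lost without its first library (adjusted p = 0.0505). ALDOC in sh1, at 12.5, 12.2 and 12.6 CPM against 10.8, 9.51 and 8.74 CPM, was higher by 0.35 ± 0.11, and this was lost without any 1 of 4 libraries (adjusted p = 0.0531 to 0.101). BNIP3 was higher in sh2 by 0.28 ± 0.07, at 40.6, 39.1 and 34.9 CPM against 33.5, 29.1 and 30.7 CPM, and this was lost without either of 2 libraries (adjusted p = 0.060 and 0.0808). ENO1 was higher by 0.17 ± 0.03 and 0.19 ± 0.03, PGAM1 by 0.22 and 0.16, and LDHA by 0.14 and 0.10, at 1424, 1369 and 1374 CPM in sh1 and 1377, 1358 and 1353 CPM in sh2 against 1292, 1220 and 1262 CPM. The call of LDHA in sh2 (adjusted p = 0.0476) was lost without any 1 of 5 libraries (adjusted p up to 0.188). The members called lower in sh1 were SLC2A3, KDM3A, BNIP3L and PKM, by 0.23, 0.22, 0.19 and 0.15, and in sh2 BNIP3L by 0.21. Of these calls, KDM3A was lost without any 1 of 3 libraries (adjusted p = 0.0557 to 0.0938), BNIP3L in sh1 without either of 2 (0.0827 and 0.0931) and BNIP3L in sh2 without the first control library (0.0575). GAPDH was at 4332, 4181 and 4247 CPM in the control, 4110, 4126 and 4267 CPM in sh1 and 4476, 4632 and 4287 CPM in sh2, and passed in neither.

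Whether the lines differed in the change from day −2 to day +2 was tested directly, as the interaction of line and day. In sh1, 19 of 35 members changed more to the negative than in the control line and 1, VEGFA, more to the positive (2.88% and 4.52% of all genes). In sh2, 14 of 35 changed more to the negative and none more to the positive (2.28% and 2.71%), and 0 were more positive by DESeq2 or at an unadjusted p under 0.05. Without TMM factors 68.8% of all such calls in sh2 were positive in place of 54.3%, and 14 members were negative. EGLN3 differed by −1.75 ± 0.33 in sh1 and −1.34 ± 0.28 in sh2 (adjusted p = 0.000850 and 0.00232), and ADM by −0.91 ± 0.28 and −1.57 ± 0.24. The estimate for HK2 was −0.90 ± 0.14 in each line, that for BNIP3 −0.97 ± 0.15 and −0.74 ± 0.13, and that for PFKFB4 −0.79 ± 0.14 and −0.75 ± 0.16. ALDOC differed by −0.88 ± 0.19 and −0.91 ± 0.22, where the higher levels of the shRNA lines at day −2 enter the difference. In sh1 ALDOC was no lower than in the control at day +2, so its difference there reflects the higher level at day −2. Higher levels at day −2 also enter the called differences of ALDOA in both lines, of PGAM1 in sh1 and of EPAS1 in sh2. CA9 had the largest estimates, −4.46 ± 1.07 in sh1 (adjusted p = 0.00814) and −3.43 ± 1.19 in sh2 (adjusted p = 0.0923), on the few reads given above, with the same limit of the filter. At day −2 CA9 had 14, 12 and 16 reads in sh1 against 6, 9 and 5 in the control, which also enters the estimate in sh1. Without the third control library of day +2, CA9 in sh1 had an adjusted p of 0.0752 and ALDOC in sh2 of 0.0748 (−0.69). The call of ADM in sh1 was lost without any 1 of 8 of the 12 libraries (adjusted p up to 0.161), and with a replicate block (adjusted p = 0.0555). In sh1 the call of EGLN1 was lost without any 1 of 9 libraries, SLC2A3 without any 1 of 8 and PDK1 and TPI1 without any 1 of 5, and in sh2 LDHA without any 1 of 5 and GPI without either of 2 (adjusted p up to 0.181). HIF1A had −0.05 ± 0.09 and 0.06 ± 0.07, GAPDH −0.19 ± 0.07 and −0.23 ± 0.07 (adjusted p = 0.126 and 0.0534), and NDRG1 0.16 ± 0.11 in sh1 and −0.49 ± 0.10 in sh2.

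**Figure D5:**
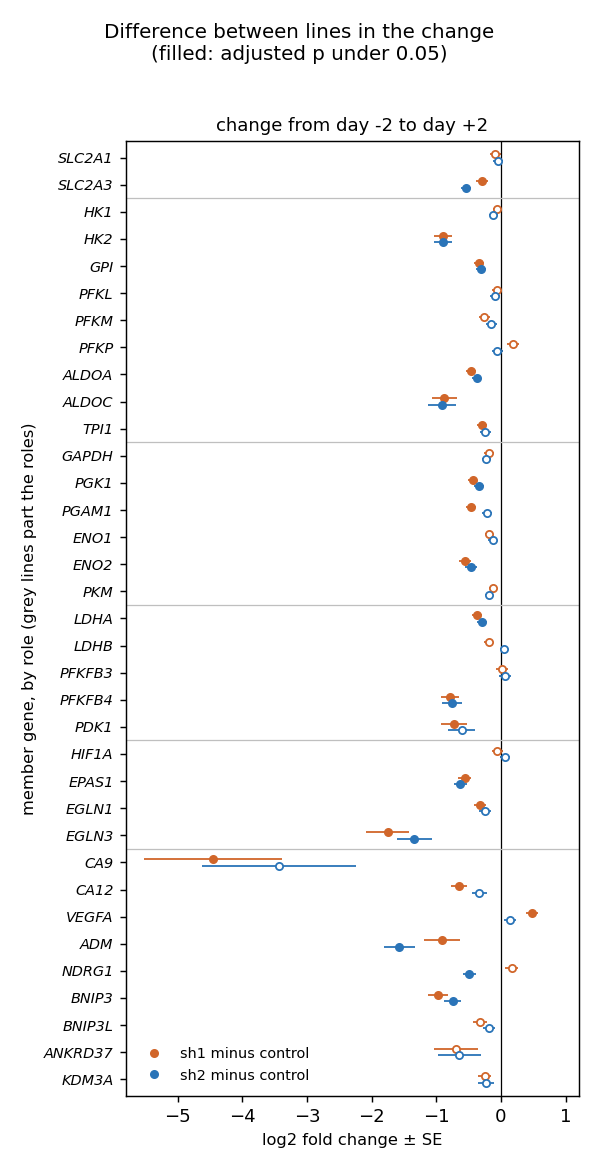
Points are the log2 difference between a shRNA line and the control line in their change from day −2 to day +2, with SE, for each member. Filled points passed an adjusted p of 0.05. Points left of 0 fell more or rose less in the shRNA line, and VEGFA in sh1 is the only filled point on the right.

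Genes of the same pathways outside the 35 moved in both directions. Of 25 further glycolytic isozymes and regulators 21 were tested in the control line from day −2 to day +2, and 6 rose and 8 fell, beside 28.1% and 28.6% of all genes. The largest changes were in the hexokinase-like HKDC1 (−3.72 ± 0.24), the pyruvate dehydrogenase kinase PDK4 (3.25 ± 0.20) and the mitochondrial phosphatase PGAM5 (−0.93 ± 0.06). Of 25 further hypoxia targets 10 rose and 9 fell, with DDIT4, an inhibitor of mTORC1, from 10.9, 10.1 and 12.1 CPM to 66.1, 81.8 and 80.8 CPM (2.80 ± 0.08). STC2 (−2.28 ± 0.67) and ANGPTL4 (2.16 ± 0.69) changed on at most 30 reads per library. Of 10 tested genes of the HIF system 2 rose and 4 fell, led by the coactivator-binding CITED2 (−1.71 ± 0.06), with ARNT2 (0.86 ± 0.08) and SIAH1 (0.63 ± 0.12). At day +2 in sh1 against the control, 5 of 24 tested further hypoxia targets were higher and 6 lower (7.68% and 7.11% of all genes), with a median of −0.04, and in sh2 2 of 25 were higher and 5 lower (2.89% and 3.43%), with a median of −0.09. DDIT4 was lower by 0.82 ± 0.07 in sh1 and 0.35 ± 0.07 in sh2, and PDK4 by 0.62 ± 0.15 and 0.64 ± 0.14. Of the further glycolytic genes 5 of 21 were higher and 4 lower in sh1, and in sh2 the 3 of 22 that passed, PDK2, PDK4 and SLC16A3, were lower.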

How the data were processed

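Poly(A) RNA of 27 libraries was analysed, 3 in each of 9 groups of line and day. The authors used Trim Galore 0.6.0 for trimming, STAR 2.7.3a for alignment (hg19), Samtools to drop alignments of low quality, and HTSeq 2.0.0 to count reads on exons in union mode, without strand and at a minimum alignment quality of 10. The deposited files hold raw counts per gene symbol, 1 library per file, and the annotation used for counting is not given in the sources used here. Reads on 2 overlapping genes are counted for neither, and reads of a gene and an antisense partner cannot be told apart. Lines that name no gene held 16.8% to 19.1% of reads and were left out.

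Each comparison was fitted on its own 6 libraries (12 for the interaction of line and day) with edgeR 4.0.16 in R 4.3.3, using TMM factors, filterByExpr (a minimum count of 10 and a total of 15) and its quasi-likelihood test. P-values were adjusted by Benjamini-Hochberg over all tested genes and called under 0.05. The SE is the absolute log2 fold change divided by the square root of F. Levels are CPM with TMM factors over all 27 libraries. Levels per kilobase use Ensembl canonical transcripts of GENCODE v44 lifted to GRCh37, the sequence of hg19, which also gave the gene positions. Promoters came from RefSeq on GRCh38.p14. Alternatives were DESeq2 1.42.0, other scalings and filters, a replicate block, 1 fit of all libraries, and leaving out each library in turn. The fits were first tested on simulated data.

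The members and the other gene lists were chosen with earlier results of these data known. By rule, all 35 members are named by role. Values in every library are given for GAPDH, HIF1A, EPAS1 and LDHA, for up to 6 called members with the largest rise and 6 with the largest fall in the control line from day −2 to day +2, for up to 3 called members per comparison of a shRNA line with the control, and up to 5 per interaction, and of each further list up to 3 called genes with the largest change in the control line. Of the further lists, 1 is not reported here. Values by library beyond that, the printed promoters, and PDK2 and SLC16A3 were chosen after the values were seen. Replicates of a group differed beyond sampling noise in all 27 pairs (chi-square per degree of freedom 4.74 to 24.6).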

Additional observations from a re-analysis of the deposited data

Results flagged for a closer look

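The results listed here were picked out because the change from day −2 to day +2 differed between a shRNA line and the control line in the interaction test of edgeR, at an adjusted p under 0.05. Values are log2 differences, shRNA line minus control line, over 12 libraries each, and a negative value means a larger fall or a smaller rise in the shRNA line. Both lines are set against the same control libraries.

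In sh1 the values for HIF targets and sensors were −4.46 for CA9, −1.75 for EGLN3, −0.97 for BNIP3, −0.91 for ADM, −0.65 for CA12, −0.56 for EPAS1, −0.32 for EGLN1 and 0.48 for VEGFA. The value for CA9 rests on few reads and has the limit of the filter given above, so it is no separate support for a difference. Among glycolysis members they were −0.90 for HK2, −0.88 for ALDOC, −0.79 for PFKFB4, −0.73 for PDK1, −0.56 for ENO2, −0.46 for ALDOA, −0.46 for PGAM1, −0.44 for PGK1, −0.37 for LDHA, −0.33 for GPI, −0.29 for SLC2A3 and −0.29 for TPI1.

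In sh2 they were −1.57 for ADM, −1.34 for EGLN3, −0.74 for BNIP3, −0.63 for EPAS1 and −0.49 for NDRG1, and in glycolysis −0.91 for ALDOC, −0.90 for HK2, −0.75 for PFKFB4, −0.54 for SLC2A3, −0.46 for ENO2, −0.38 for ALDOA, −0.34 for PGK1, −0.31 for GPI and −0.30 for LDHA. The sh1 calls of CA9, ADM, EGLN1, SLC2A3, PDK1 and TPI1 and the sh2 calls of ALDOC, GPI and LDHA were each lost without at least 1 library. Higher levels of the shRNA line at day −2 enter the values of ALDOC and ALDOA in both lines. The same holds for PGAM1 and CA9 in sh1 and for EPAS1 in sh2. No cause of these differences was tested.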

How the results depend on the processing

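No called member changed direction under any setting tried. Against the control line, 6 members were called in sh2 at day −2, but 11 with DESeq2 and 3 to 6 when 1 library was left out, with 3 without the second or the third control library or the third sh2 library. The share of all tested genes at day −2 moved as well. It was 11.04%, and 3.75% to 8.91% when 1 library was left out. With DESeq2 it was 19.1%, of 12945 tested genes in place of 18845. At day 0, 12 were called in sh2, and 7 to 13 when 1 library was left out, with 7 without the second sh2 library. The share of all tested genes was 12.9%, and 7.58% to 11.5% when 1 library was left out. Of 247 calls, 25 were lost under at least 1 other setting and 46 without at least 1 library. CA9 in sh2 at day +2 was lost when all 27 libraries were fitted together (adjusted p = 0.0623 in edgeR). The cause was not tested, beyond the fewer samples of the fits that leave one out.

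Replicate numbers did not pair the samples. Deviations of libraries with the same number from their group means correlated between −0.025 and 0.026 across genes, so the samples share only a number. With a replicate block, 31 members were called in the control line from day −2 to day +2 as without it, 22 in place of 23 in its first step and 26 in place of 28 in its second. The shares of all tested genes were 55.7% in place of 56.8%, 33.9% in place of 35.5% and 40.3% in place of 41.4%. Against the control at day 0, 15 in place of 14 were called in sh1 and 10 in place of 12 in sh2, and at day +2 23 and 19 as without it. The shares of all tested genes at day 0 were 17.66% in place of 16.84% in sh1 and 11.03% in place of 12.88% in sh2. At day +2 they fell to 11.02% in place of 14.79% in sh1 and 5.56% in place of 6.32% in sh2. In the interaction of line and day, 19 in place of 20 were called in sh1, and 14 in sh2 as without it. The shares of all tested genes there were 6.67% in place of 7.40% and 4.25% in place of 4.98%. Members with few reads, CA9 first, are limited by depth.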
